A study of Mus musculus with 2 samples.

Results

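Tight junctions seal the space between neighbouring cells of the upper living layers of the epidermis. The expression of 9 genes of this structure was described in newborn mouse epidermis, the claudins Cldn1, Cldn3, Cldn4, Cldn7, Cldn8, Cldn12 and Cldn23, occludin (Ocln) and the scaffold gene Tjp1. They were taken by name, through the symbol or the gene identifier of each probe, and are measured by 10 of the 25697 probes of the array. In all, the probes stand for 17871 genes. Cldn8 has 2 probes and the other members 1 each. In the knockout epidermis Cldn23 read 1.46-fold higher and Cldn3 1.44-fold lower than in control epidermis. Differences as far from 0 were found in 15.2% and 16.7% of all genes above background. Cldn3 was under 1.3-fold without background correction and in the authors' normalized values. The other 5 members above background differed by less than 1.3-fold, but with median scaling of the arrays Cldn12 read more than 1.3-fold lower. Cldn7 and Cldn8 were not well above background on either array.

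The knockout mice, called DKO, were VDR fl/fl CaSR fl/fl animals with a Cre recombinase driven by keratin 14 (K14). Their littermate controls, called CON, carried the same floxed alleles of the vitamin D receptor (VDR) and the calcium sensing receptor (CaSR) without Cre. Both groups were C57BL6 mice at postnatal day 5, and the epidermis of the back was lifted off the dermis with dispase. RNA of 3 mice was combined for each group and read on 1 Illumina array, so the groups have no replicates and no test between them was possible. K14 marks the basal keratinocytes and their descendants, so the deletion was not directed at the melanocytes, Langerhans cells or T cells of the epidermis. The protocol text calls the second pool a VDR knockout, and the titles and genotypes, which name both receptors, were followed.

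Claudins are small proteins with several membrane passes that pair across the gap between adjacent cells. Some tighten the seal, and others form pores for ions. Occludin runs beside them in the same strands, and the scaffold ZO-1, the product of Tjp1, holds the cytoplasmic tails of claudins and links them to actin. In mouse skin the strands lie in the granular layer, and pups without Cldn1 lose water through the skin and die soon after birth. Extracellular calcium and vitamin D, the ligands of the 2 deleted receptors, are both known to promote keratinocyte differentiation and the assembly of cell junctions.

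The RefSeq table of promoters (assembly GRCm38.p6) held windows of 250 bases before a transcription start for 7 of the 9 members, 11 windows in all. Cldn1, Cldn3 and Cldn4 are shown, Cldn1 for its known part in the skin barrier. Cldn3 and Cldn4 are direct neighbours on chromosome 5, with 0 protein-coding genes between them. They were chosen because their differences, read by 1 probe each, lay apart here. With 1 array per group that gap was not tested. Capitals mark matches, on either strand, to the 6 motifs searched, overlaps included. The motifs were AGGTCA, bound by nuclear receptors, CACCTG, the E-box bound by Snail and Zeb proteins, and GGGCGG, the box bound by proteins of the Sp1 and Klf type. The other motifs were TGACTCA, bound by the AP-1 proteins, TATAAA, the element bound by the general initiation machinery, and AACCGGTT, bound by Grainyhead factors. Each stretch is written 5′ to 3′ on the strand of its gene. The stretches lie at chr16:26371840-26372089 (minus strand), chr5:134985964-134986213 (plus strand) and chr5:134946935-134947184 (minus strand).
Cldn1: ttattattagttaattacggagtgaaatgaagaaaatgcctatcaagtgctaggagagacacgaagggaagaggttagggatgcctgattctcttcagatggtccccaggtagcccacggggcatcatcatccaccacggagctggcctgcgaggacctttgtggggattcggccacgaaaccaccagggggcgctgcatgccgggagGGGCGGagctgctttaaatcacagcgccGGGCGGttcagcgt
Cldn3: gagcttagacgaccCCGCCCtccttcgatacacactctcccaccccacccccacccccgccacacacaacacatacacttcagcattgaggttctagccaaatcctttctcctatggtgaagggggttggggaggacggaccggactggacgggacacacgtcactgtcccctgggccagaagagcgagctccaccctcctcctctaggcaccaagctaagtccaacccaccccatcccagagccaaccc
Cldn4: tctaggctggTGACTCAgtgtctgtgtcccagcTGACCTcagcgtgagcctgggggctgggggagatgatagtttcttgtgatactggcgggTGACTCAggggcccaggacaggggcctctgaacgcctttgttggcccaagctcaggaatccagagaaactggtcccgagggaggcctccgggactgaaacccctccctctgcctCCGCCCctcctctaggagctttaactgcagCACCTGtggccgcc

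The Cldn4 stretch held matches to 4 of the 6 motifs. Its TGACTCA matches began 240 and 158 bases before the start, its nuclear receptor motif 217, its GGGCGG match 44 and its E-box 14 bases before it. Of the 32851 windows in the table, 4.46% held TGACTCA, 14.0% AGGTCA, 32.7% GGGCGG and 17.2% CACCTG. The Cldn3 stretch held GGGCGG 236 bases before the start, and the Cldn1 stretch held it at 42 and 14 bases before it. The nuclear receptor motif was also matched 40 and 31 bases before the starts of the 2 Cldn7 windows and 245 bases before 1 start of Ocln. TATAAA, which 12.4% of all windows held, and AACCGGTT, held by 0.116%, were matched in none of the 11 member windows. A match here is a match of letters, and no binding was measured.

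Signals below are normalized intensities on the log2 scale, and a difference is DKO minus CON. A probe counted as detected where its detection p, taken against the negative controls of its own array, was under 0.01. On the DKO array 10441 probes (40.6%) were detected and on the CON array 10760 (41.9%), and 8472 genes were detected on at least 1 array. The keratinocyte markers Krt14 and Krt5 were bright on both arrays, at 14.28 and 13.92 on DKO and 14.28 and 13.88 on CON. None of the 6 endothelial markers was detected, and of the 6 dermal fibroblast markers only Dcn was. The 3 Vdr probes were detected on both arrays, with differences of -0.12, -0.24 and -0.82, and the single Casr probe lay in the background of both (detection p 0.941 on DKO and 0.0338 on CON). Where these probes lie relative to the floxed exons was not analysed here, so they are no check of the deletion.

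Of the 9 members, 7 were detected, all 7 on both arrays with a detection p of 0. Among these 7, 4 read higher and 3 lower on the DKO array, with Cldn4 among the lower ones under median scaling. None differed by 2-fold, a size reached by 1.05% of all detected genes in the higher direction and 1.39% in the lower. At 1.3-fold, 1 member (14.3%) read higher and 1 (14.3%) lower, against 13.3% and 16.6% of all detected genes, so both shares lay near the background. Without background correction, and in the authors' normalized table, 0 members read 1.3-fold lower. The median difference of the 7 was 0.08, against -0.02 over all detected genes, and their SD was 0.40, against 0.42. In bulk tissue, fewer cells of a type and less RNA per cell cannot be told apart, and this holds for every value here.

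**Figure D1:**
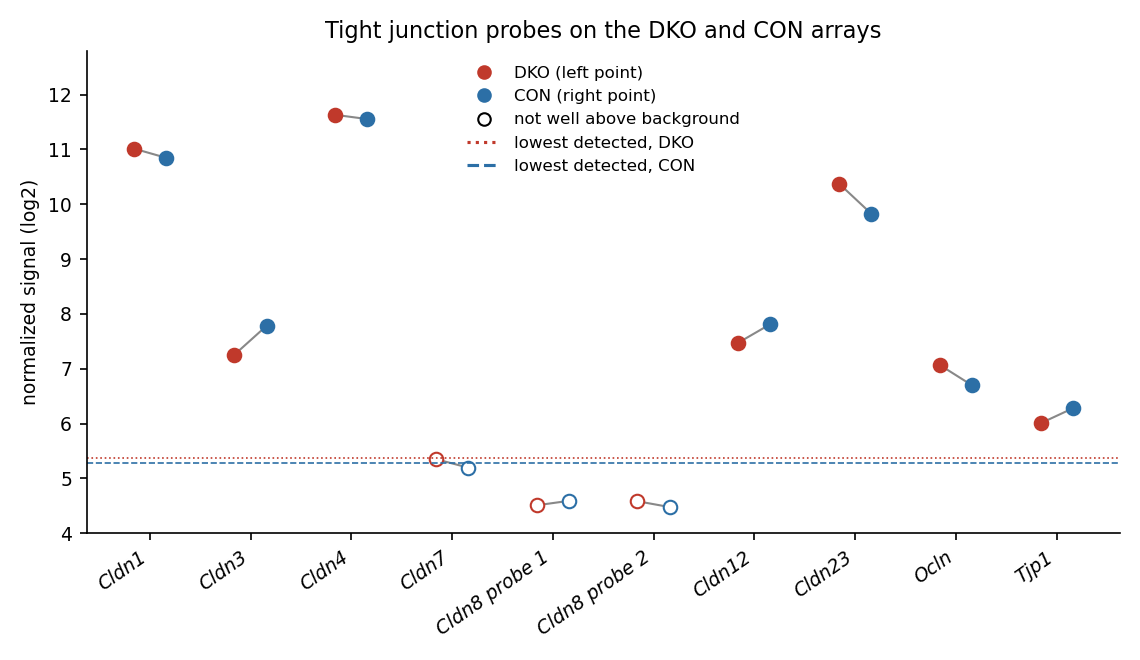
Normalized signal (log2, vertical axis) of the 10 probes of the 9 genes on the DKO array (red, left point) and the CON array (blue, right point), 1 array of RNA from 3 mice each. Open circles are probes not well above background, and the horizontal lines are the lowest detected signals, 5.38 on DKO and 5.28 on CON. Cldn7 and both Cldn8 probes are open on both arrays, and the steepest lines belong to Cldn23, higher on DKO, and Cldn3, lower on DKO.

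Cldn1, the claudin whose loss opens the epidermal barrier in mice, had a raw signal of 2061.5 on the DKO array and 2076.3 on the CON array. After normalization it read 11.02 on DKO and 10.85 on CON, a difference of 0.17 (1.12-fold). Of all detected genes, 28.9% had a difference at or above this. Cldn4, a sealing claudin of differentiated keratinocytes, had raw signals of 3078.7 on DKO and 3304.5 on CON, and read 11.63 on DKO and 11.55 on CON after normalization. Its difference was 0.08 (1.06-fold). For both genes the raw signal was the lower one on DKO and the normalized signal the higher one, so the direction rests on the scaling of the arrays, and both differences lay under the pooled SD of 0.30 found between detected probes of the same gene (2047 genes). That SD describes probes and is not variation between mice.

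Cldn23, a claudin also described in differentiated cells of the gut lining, had the highest difference of the 7. Its raw signal was 1359.1 on DKO and 1081.1 on CON, and after normalization it read 10.38 on DKO and 9.83 on CON, a difference of 0.55. The authors' normalized values were 1769.8 on DKO and 1267.2 on CON, a log2 difference of 0.48. Of all detected genes, 6.86% had a difference at or above that of Cldn23, and 15.2% lay as far from 0 in either direction. The difference was larger than the SD between probes of a gene, as were those of Cldn3, Ocln and Cldn12. Cldn23 is 1 of the 1695 genes in the brightest of 5 equal signal groups, where the central 95% of differences ran from -0.61 to 0.66 and the SD was 0.35.

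Cldn3 lay at the other end. Its raw signal was 255.1 on DKO and 344.7 on CON, and after normalization it read 7.26 on DKO and 7.78 on CON, a difference of -0.53. In the authors' normalized values, 324.6 on DKO and 416.4 on CON, the log2 difference was -0.36, which is under 1.3-fold. Of all detected genes, 9.29% had a difference at or below that of Cldn3, and 16.7% lay as far from 0. In its own signal group, the middle one, the central 95% ran from -0.75 to 0.78. The differences of Cldn3 and Cldn23 lay 1.08 apart on the log2 scale, and those of Cldn3 and its chromosomal neighbour Cldn4 0.61 apart.

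Cldn12, a claudin without the usual binding motif for scaffold proteins at its tail, also read lower on DKO. Its raw signal was 278 on DKO and 349.6 on CON, and its normalized signal 7.47 on DKO and 7.82 on CON. The difference was -0.34 (1.27-fold lower), and 19.1% of all detected genes lay at or below it. Cldn3 and Cldn12, both in the middle signal group, read lower, and Cldn1, Cldn4 and Cldn23, all in the brightest, read higher after quantile normalization, Cldn4 not so under median scaling.

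Cldn7 and Cldn8, claudins known from many epithelia and for Cldn8 from the kidney, gave no fold. The Cldn7 probe had raw signals of 150.2 on DKO and 149.5 on CON, with detection p of 0.0113 on DKO and 0.0163 on CON, just outside the limit on both. The first Cldn8 probe read 128.3 on DKO and 132.5 on CON in raw units (detection p 0.366 on DKO and 0.232 on CON), and the second 130.8 on DKO and 128.1 on CON (detection p 0.257 on DKO and 0.440 on CON). The 2 Cldn8 probes pointed in opposite directions, both inside the background of the array.

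Occludin had a raw signal of 237.4 on DKO and 221.3 on CON. It read 7.07 on DKO and 6.70 on CON after normalization, a difference of 0.37 (1.29-fold), just short of the 1.3-fold limit. In its signal group, the second dimmest, the central 95% of differences ran from -0.88 to 0.82, and 13.7% of all detected genes lay at or above it. Tjp1, the ZO-1 scaffold, had raw signals of 172 on DKO and 193.4 on CON and normalized signals of 6.01 on DKO and 6.28 on CON. Its difference was -0.27 (1.21-fold lower), with 23.8% of detected genes at or below it. All 7 detected members lay inside the central 95% of their own signal group.

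**Figure D2:**
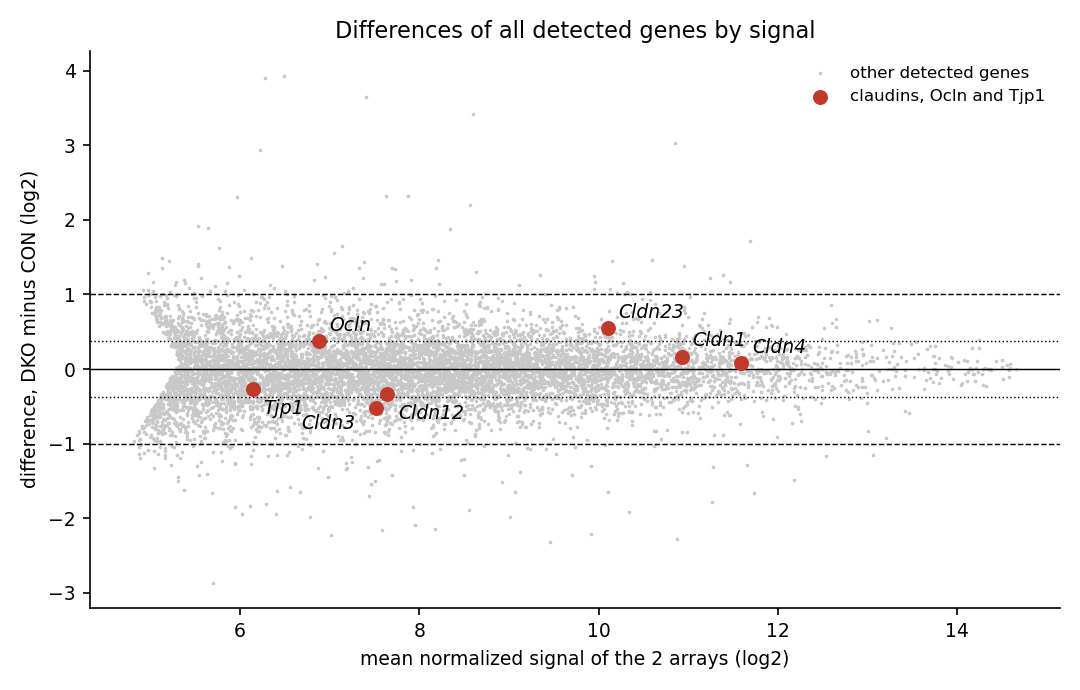
Difference DKO minus CON (log2, vertical axis) of the 8472 detected genes against their mean normalized signal (log2, horizontal axis), with the 7 detected claudins, Ocln and Tjp1 in red. Dotted lines mark 1.3-fold and dashed lines 2-fold. The red points lie within the cloud of other genes, with Cldn23 above the upper dotted line and Cldn3 below the lower one.

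The values depend in part on how the arrays are brought to one scale. Over the processing alternatives the difference of Cldn23 ran from 0.42 to 0.55 and that of Cldn3 from -0.63 to -0.33. Cldn12 stayed between -0.45 and -0.22, Tjp1 between -0.35 and -0.11, Ocln between 0.19 and 0.37 and Cldn1 between 0.05 and 0.17. Cldn4 had differences from -0.05 to 0.08 and was below 0 only with median scaling in place of quantile normalization. That scaling moved the median of all detected genes to -0.13, and relative to that median Cldn4 still lay higher. It also changed the counts over all genes at 1.3-fold to 782 higher and 1999 lower, against 1123 higher and 1409 lower with quantile normalization.

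**Figure D3:**
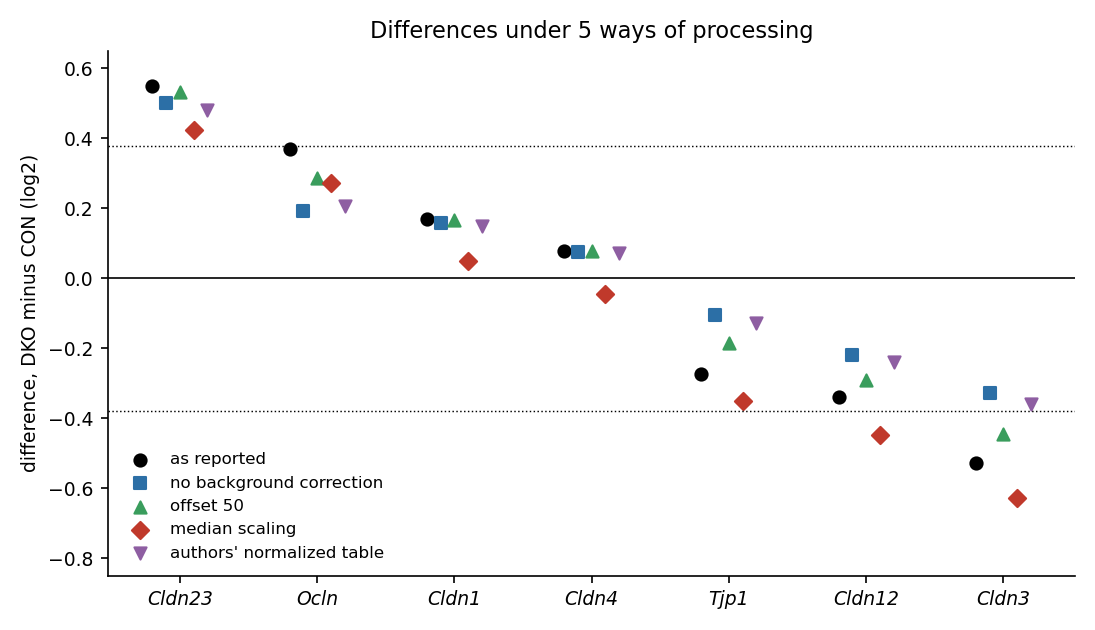
Difference DKO minus CON (log2, vertical axis) of the 7 detected members as reported (black) and under 4 other ways of processing, from the highest member on the left to the lowest on the right, with dotted lines at 1.3-fold. Cldn23 stays above the upper line under each, and Cldn3 lies between the line and 0 without background correction and in the authors' normalized table. With median scaling Cldn4 is below 0 and Cldn12 below the lower line.

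A wider list of tight junction genes was set beside the members. It names 53 further claudins, adhesion molecules, tricellular proteins, scaffolds and polarity proteins, of which 43 are on the array and 23 were detected, 21 of them on DKO and all 23 on CON. Of these 23, 11 read higher and 12 lower, 0 differed by 2-fold, and the median difference was -0.01. At 1.3-fold 3 read higher (13.3% of all detected genes did) and 5 lower (16.6% of all detected genes did). One of the 5, Cldn17, was not well above background on DKO, and its bound gave no fold. Without background correction 0 read 1.3-fold higher and 1 lower.

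Claudins outside the 9 were mostly not well above background. Of 17 such genes on the array, Cldn9, Cldn10, Cldn15 and Cldn17 were detected, and Cldn2, Cldn5, Cldn6, Cldn11, Cldn13, Cldn14, Cldn16, Cldn18, Cldn19, Cldn34b2, Cldn34b3, Cldn34b4 and Cldn34c1 were not well above background on either array. Cldn5 is the claudin of blood vessel walls, and its detection p was 0.820 on DKO and 0.872 on CON. Cldn9, known for its part in the inner ear of mice, had raw signals of 180.4 on DKO and 169.1 on CON, a normalized difference of 0.41 (1.33-fold). Cldn10, a pore-forming claudin of kidney and sweat gland, read 7.77 on DKO and 8.17 on CON by its brightest probe, a difference of -0.40, and its other detected probes gave -0.19 and -0.72. The gut claudin Cldn15 differed by 0.16. Cldn17, which forms a pore for anions, read 4.76 on DKO, where it was not well above background, and 5.33 on CON.

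Among the adhesion molecules of the junction, F11r, which encodes JAM-A, had the highest difference of the list. It read 8.36 on DKO and 7.87 on CON, a difference of 0.49 (1.41-fold). Cxadr, the coxsackievirus and adenovirus receptor, read 10.03 on DKO and 10.47 on CON by its brightest probe, a difference of -0.44. Its other 2 probes disagreed, at -0.94 and 0.70, so no single direction holds for the gene. The tricellular proteins Lsr and Ildr1, which recruit partners to the points where cells meet in threes, had differences of 0.33 and 0.40 by their brightest probes, but a second Ildr1 probe detected on both arrays read -0.28.

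Among scaffold and polarity genes, Magi1 read 6.02 on DKO and 6.45 on CON by its brightest probe, a difference of -0.43, and its other detected probes gave 0.14 and 0.28. Mpdz, which encodes the scaffold MUPP1, read 5.68 on DKO and 6.09 on CON (-0.40). Crb3, a Crumbs polarity protein, was not well above background on DKO and was at least 1.04-fold lower there.

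Genes that act on claudins from outside the strand were listed separately. They comprise proteases and their inhibitors, transcription factors and kinases, 27 in all, of which 25 are on the array and 21 were detected. Of these, 13 read higher and 8 lower, 0 by 2-fold, with a median of 0.05. At 1.3-fold 4 read higher and 3 lower, 19.0% and 14.3% of the 21, against 13.3% and 16.6% of all detected genes. In the authors' normalized values Spint2, Wnk1 and Zeb1, which are among these, differed by less than 1.3-fold. The other ways of processing were not counted for this list. Spint2 and Zeb1 were each well above background on 1 array only and were counted by their own signals.

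Prss8, the membrane protease prostasin, which mouse epidermis needs for its barrier, read 9.63 on DKO and 9.07 on CON, a difference of 0.55, and its second probe gave 0.20. Spint2, an inhibitor of such proteases, was at least 1.37-fold higher on DKO, with a CON signal not well above background. Tgm1, the transglutaminase that cross-links the cornified envelope, read 10.93 on DKO and 10.31 on CON (0.62, 1.54-fold).

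Of the transcription factors, Grhl3, a Grainyhead factor of epidermal barrier formation, read 7.40 on DKO and 6.69 on CON, 1.65-fold higher. Its relative Grhl2, known in mice to activate Cldn4, read 8.14 on DKO and 8.73 on CON, 1.50-fold lower. Each of the 2 was read by 1 probe. Zeb1, a repressor of epithelial genes, was not well above background on DKO and was at least 1.03-fold lower there. Trp63, the master factor of stratified epithelia, read 11.85 on DKO and 12.15 on CON (-0.29). Ovol2, a factor that maintains epithelial identity, had a difference of 0.35 by its brightest probe and -0.68 by another that was not well above background on DKO. Among kinases, Wnk1, a regulator of ion transport, gave -0.42 by its brightest probe and 0.55 by another, and the receptor kinase Epha2 gave 0.28.

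**Figure D4:**
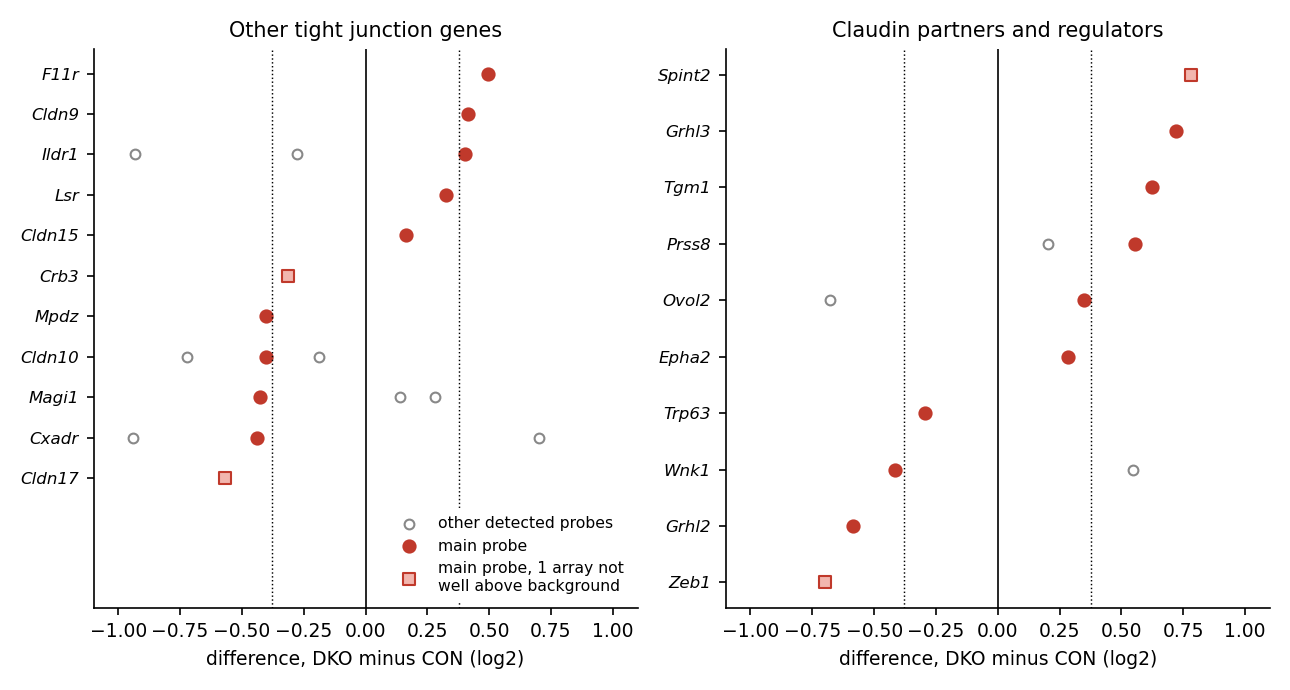
Difference DKO minus CON (log2, horizontal axis) of the 10 detected genes with the largest absolute difference in the wider tight junction list, with its other detected claudin Cldn15 (left, 11 genes), and in the list of claudin partners and regulators (right, 10 genes), ordered from highest to lowest. Filled circles are the brightest probe of a gene, squares those with 1 array not well above background, open circles other detected probes, and dotted lines 1.3-fold. Several genes, among them Cxadr, Ildr1, Magi1 and Wnk1, have a probe on the opposite side of 0 from the brightest one.

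The 2 pools also differed in transcripts of other cell types. Of 9 hair follicle markers on the array 8 were detected. By their own signals all 8 read at least 1.3-fold lower on DKO, 6 of them at least 2-fold. Lhx2, 1 of the 8, was not well above background on DKO. Its CON signal of 5.70, set against the lowest detected DKO signal of 5.38, gives a bound under 1.3-fold. The summed linear signal of the 8 was 10208.6 on DKO and 27885.2 on CON, and their median difference -1.23. Krt25 was the 1 follicle marker not well above background on either array. The 6 keratinocyte markers had a median difference of 0.0037, with Krt1 0.64 higher and Ivl 0.44 lower on DKO. Quantile normalization gives probes of equal rank the same value, and the difference of 0 for Krt14 was set that way. Its raw signal was 20416.7 on DKO and 19650.8 on CON. The median therefore does not measure the keratinocyte share of the RNA. For comparison, 13.3% of all detected genes read at least 1.3-fold higher and 16.6% lower. At least 2-fold lower were 1.39%, and 52.6% read lower by any amount. All 4 detected melanocyte markers read lower on DKO (median -0.38, summed linear signal 2434.9 on DKO and 3212.4 on CON). All 4 detected Langerhans cell markers read higher (median 0.31, summed signal 7836.4 on DKO and 6937.6 on CON), 2 of them by at least 1.3-fold. The 2 detected erythroid markers split, 1 higher and 1 at least 1.3-fold lower. The 5 T cell markers had a median of -0.44, with 3 at least 1.3-fold lower (summed signal 1602.8 on DKO and 1822.8 on CON). Cd3d and Cd3g each differed by 0.03, and Cd3e, Lck and Thy1 by -0.44, -0.70 and -0.55. Of the 5 detected sebocyte markers 4 read lower, with a median of -0.35 (summed signal 7215.1 on DKO and 9393.6 on CON). The pools also differed in the Y-linked transcript Ddx3y, which read 10.31 on DKO and 6.89 on CON. The part of these cell types, of differentiation stage or of the sex of the mice in the tight junction values was not tested.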

How the data were processed

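Epidermal RNA was measured on 2 Illumina arrays, 1 for DKO and 1 for CON, each of RNA combined from 3 mice. The authors deposited raw intensity and a detection p-value for every probe, and a table of normalized intensity on a linear scale, whose values for the whole series match it at every probe. Per the submitters' processing notes GenomeStudio 2011.1 was used. How the normalized table was made is not given in the sources.

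The deposited raw intensity was background-corrected by neqc of limma 3.58.1 under R 4.3.3 (normexp from the detection p-values, offset 16), quantile normalized and put on the log2 scale. A gene was read by its brightest probe and entered when that probe had a detection p-value under 0.01 on at least 1 array. A fold with 1 array in the background is a bound, set against the higher of its own signal and the lowest detected signal of that array, and no fold is given where the bound is under 1. Of the probes, 16938 took their name from a gene identifier, 7420 from an accession, 465 from a current and 553 from an older symbol through the RefSeq table of GRCm38.p6, and 321 kept the array's name.

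With 1 array per group the groups were compared by size alone, without a test. Genes were counted past 2-fold and 1.3-fold. The text names all members, of each wider list up to 10 detected genes with the largest absolute difference, all claudins, and Vdr and Casr. The follicle, keratinocyte, T cell and Y-linked genes were named in addition. The members and lists were chosen with earlier results of these data known. The steps were tested on simulated data with planted changes all larger than 2-fold, so that test does not cover the 1.3-fold counts. Of the lists, Epcam and Snai2 and 10 tight junction genes were not analysed here. In all, 9 other ways of processing were tried, 1 of them chosen after seeing the data.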

Additional observations from a re-analysis of the deposited data

How the results depend on the processing

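Of the 7 detected members, 6 kept their direction under each of the 9 alternatives, and Cldn4 read -0.05 with median scaling. Sizes moved by over 1.5 times for Cldn1 (to 0.05 with median scaling), and without background correction for Tjp1 (to -0.11), Ocln (to 0.19), Cldn3 (to -0.33) and Cldn12 (to -0.22). No member reached 2-fold, and 1 read at least 1.3-fold higher, under every alternative. The members at least 1.3-fold lower numbered 1 as reported, 0 without background correction, 0 in the authors' table and 2 with median scaling (Cldn3 and Cldn12). Of the wider tight junction list, 3 of 23 genes read at least 1.3-fold higher as reported, 0 without background correction, 0 in the authors' table, 1 with an offset of 50, 1 with median scaling, 5 of 43 without a filter on detection and 5 of 27 at a detection p under 0.05. Its genes at least 1.3-fold lower numbered 5 as reported, 1 without background correction, 1 with an offset of 50, 1 in the authors' table and 3 with the mean over detected probes. Dim values set at their bound, an alternative chosen after seeing the data, gave 4. The cause of these shifts was not tested. Over all 8472 detected genes, those at least 1.3-fold higher and lower numbered 1123 and 1409 as reported. They numbered 432 and 489 without background correction, 766 and 907 of 8473 with an offset of 50, and 485 and 551 in the authors' table. Median scaling gave 782 and 1999, and dim values at their bound 996 and 1164. The mean over detected probes gave 1128 and 1365 of 8475 genes. A detection p under 0.05 gave 1509 and 1669 of 9970 genes. Without a filter they numbered 1708 and 1903, but of 17871 genes. No paired analysis was possible because each group has 1 array. No replicate could be left out. The number of arrays limits the precision, and probes near background, such as those of Cldn7 and Cldn8, give no fold.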

Other observations

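Claudin genes that lie next to each other on a chromosome were set side by side. Of the neighbour pairs with 0 protein-coding genes between them, Cldn4 and Cldn3 were both detected, with differences of 0.08 and -0.53. In the pair Cldn1 and Cldn16 only Cldn1 was detected, and in the pair Cldn6 and Cldn9 only Cldn9. Cldn17 was detected on CON alone, and its neighbour Cldn8 on neither array. Cldn13, separated from Cldn4 by Mettl27 only, was not well above background (detection p 0.728 on DKO and 0.731 on CON).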
